A study of Mus musculus with 384 samples.

Results

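The genes described here are 9 mouse genes for chloride channels and chloride transporters, out of 32813 genes in the deposited tables: the bestrophins Best1, Best2 and Best3, the anoctamins Ano1 and Ano2, the ClC family genes Clcn2 and Clcn3, and the cation-chloride cotransporters Slc12a2 and Slc12a5. They were followed across 3 groups of single retinal cells. The family was chosen by the measured levels of Best3, which were already known to mark the cells with Vsx1, so Best3 is described in those cells and not tested there. The cells came from 4 retinas, 1la and 1Ra of mouse 1 and 2la and 2Ra of mouse 2, at postnatal day 17. All mice carried Cre recombinase in the Kcng4 locus and a Thy1-driven, Cre-dependent yellow fluorescent protein, and fluorescent cells were sorted, so every group holds cells with present or past Kcng4-cre activity. The labels name no treatment, no other genotype, no sex and no strain background. Each of 384 cells was made into a full-length cDNA library with Smart-seq2, and 383 cells had values.

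Cells were kept if at least 3000 genes had an expected count (the count that RSEM estimates per gene) of 1 or more, which left 321 cells and set 62 aside. A kept cell entered a group if exactly 1 of Sox6, Vsx1 and Ddit4l, transcripts that mark different kinds of Kcng4-cre bipolar cell here, stood at 20 TPM or more. TPM is an abundance per length that sums to the same total in all cells. This gave 151 Sox6-only, 60 Vsx1-only and 59 Ddit4l-only cells, with 63, 34 and 29 from mouse 1 and 88, 26 and 30 from mouse 2. A further 33 cells had none of the 3 markers at that level and 18 had more than 1. Few cells lay near the threshold: 5, 4 and 3 kept cells had Sox6, Vsx1 and Ddit4l between 10 and 20 TPM, and 8, 2 and 2 had them between 20 and 40 TPM.

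The median total count per cell was 1067453 in Sox6-only, 1072603 in Vsx1-only and 1091485 in Ddit4l-only cells. Of the 12 general bipolar cell markers, 12, 11 and 10 were each at 1 TPM or above in most Sox6-only, Vsx1-only and Ddit4l-only cells. Each marker was counted on its own, not together with others in a cell, and its level could still differ between groups. No pigment epithelium, endothelium or microglia marker was at 1 TPM or above in most cells of any group, and neither were the rod bipolar markers. Of other cell types, Glul, Slc1a3 and Clu of 8 Müller glia markers, Pax6 of 8 amacrine, Calb1 of 4 horizontal, Pde6h of 7 cone and Thy1 of 10 ganglion cell markers were at that level in most cells of at least 1 group. Rod transcripts were present in all groups. The summed TPM of 8 rod markers averaged 838.8 to 3431 per retina in Vsx1-only, 1182 to 2606 in Sox6-only and 495.7 to 1677 in Ddit4l-only cells, and none of the 8 was at 0 in any group. That sum was 1000 TPM or more in 18 of 60 Vsx1-only, 43 of 151 Sox6-only and 11 of 59 Ddit4l-only cells, which are called cells of high rod RNA. Wells were not shared between retinas, so retina and well set cannot be told apart.

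Chloride channels let chloride flow down its gradient, and the cotransporters build that gradient. Bestrophins and Ano1 and Ano2 open on calcium, Clcn2 opens on hyperpolarisation, and Clcn3 exchanges chloride for protons in endosomes and vesicles. Slc12a5 (KCC2) carries chloride out of neurons with potassium and Slc12a2 (NKCC1) carries it in with sodium and potassium, and their balance sets how a neuron responds to GABA and glycine, the inhibitory transmitters of the inner retina.

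To compare groups, counts were summed over the cells of a group in each mouse and expressed as CPM, counts relative to the library's total. The mouse is the replicate (n = 2), and cells of 1 retina are not independent. The test was edgeR's quasi-likelihood test over all genes with the mouse as a block, and a call needed a Benjamini-Hochberg adjusted p under 0.05 and at least a 2-fold difference. The filter on low counts was passed by 6 members, Best3, Ano2, Clcn2, Clcn3, Slc12a2 and Slc12a5, and not by Best1, Best2 and Ano1. Most counts of Best3 and Ano2 lay in Vsx1-only cells, though both also had counts in sums of the other groups.

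Among the bestrophins, Best3 was the transcript of the Vsx1-only cells. It lies on the plus strand at chr10:116986314-117025040 (GRCm38), and no other annotated gene overlaps it. In Vsx1-only cells it stood at 291, 189, 175 and 91.1 CPM in retinas 1la, 1Ra, 2la and 2Ra, a mean of 194 ± 81.9 CPM (SD, n = 2 mice). In Sox6-only cells it stood at 0.144, 0.0448 and 0.110 CPM in the first 3 and at 9.64 CPM in 2Ra. Ddit4l-only cells had no Best3 count in 1la, 1Ra and 2la and 31.4 CPM in 2Ra. All 4 retinas of the Vsx1-only group were above all 4 of both other groups, and the raised values outside it were both from retina 2Ra. Of all genes tested in retina sums, 3.37% stood so above Sox6-only and 4.66% above Ddit4l-only retinas. Best3 was chosen for its level in these cells, so its separation is only described. In mouse 1 the 0 counts of the Ddit4l-only sum, out of 27646550, allow up to 0.109 CPM by read counting alone. Best3 counts lay in few cells, so the level compatible with these cells can be higher. In 2Ra, 1 Ddit4l-only cell with 345.1 counts made up nearly all of the 31.4 CPM.

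Cell by cell, Best3 was either clearly present or near absent. With a limit of 5 counts, it was found in 41 of 60 Vsx1-only cells (68.3%, exact 95% interval 55.04% to 79.7%), in 2 of 151 Sox6-only cells (1.32%, 0.161% to 4.70%) and in 1 of 59 Ddit4l-only cells (1.69%, 0.0429% to 9.09%). These intervals cover counting error only. By retina the Vsx1-only share was 11 of 16, 11 of 18, 11 of 14 and 8 of 12 cells in the same order. The 41 Vsx1-only cells held 25 to 877.9 counts with a median of 232.7, at a median level of 149 TPM. With a limit of 1 count the Sox6-only share rose to 16 of 151 cells (10.6%), but 14 of these 16 cells held a single count. The 2 Sox6-only cells with more held 44 and 354.0 counts, and the 1 Ddit4l-only cell held 345.1.

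**Figure D1:**
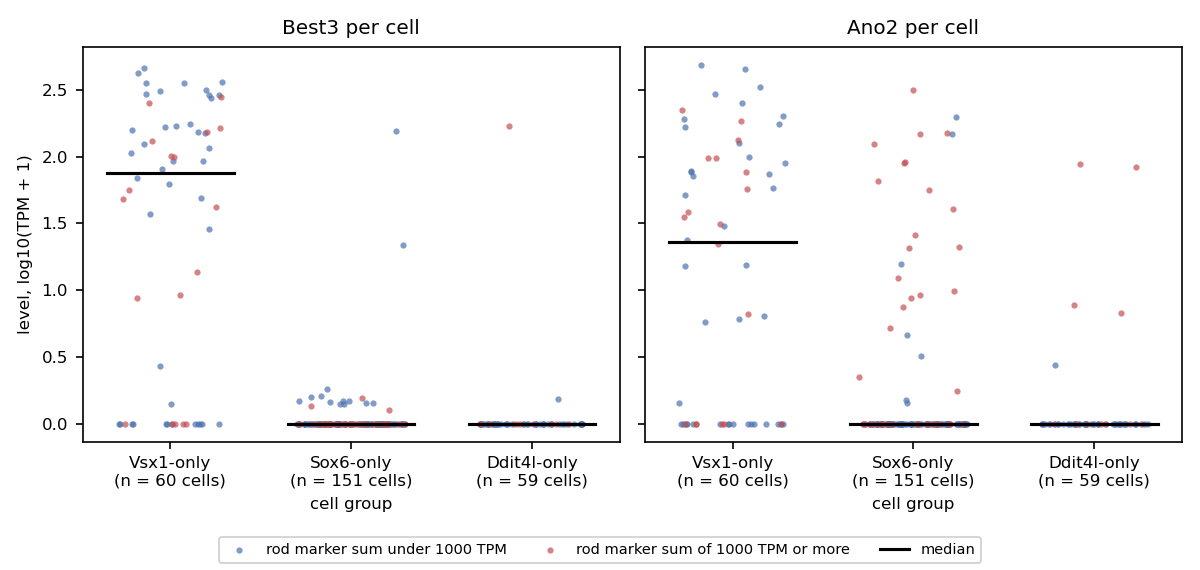
Level of Best3 (left) and Ano2 (right) in each Vsx1-only, Sox6-only and Ddit4l-only cell, as log10(TPM + 1). Each point is 1 cell, coloured by its summed rod marker TPM, and the black line is the group median. Best3 points above the single-count band lie in Vsx1-only cells with 3 exceptions, whereas the Ano2 points of the other groups are mostly cells with a rod marker sum of 1000 TPM or more.

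Split by rod RNA, Best3 was found in 13 of 18 Vsx1-only cells of high rod RNA (72.2%, 46.5% to 90.3%) and in 28 of 42 others (66.7%, 50.5% to 80.4%). The level moved more than the share: in summed cells Best3 stood at 124 CPM before TMM scaling with high rod RNA and at 231 CPM in the others. It was lower with high rod RNA in both mice, at 181 against 284 CPM in mouse 1 and 63.3 against 173 CPM in mouse 2, but not in retina 1Ra, where 3 cells of high rod RNA gave 302 CPM against 163 CPM. The part of rod RNA in this was not tested. The remaining 19 of 60 Vsx1-only cells held fewer than 5 Best3 counts. Thinning every cell to 300000 counts left the share at 71.2% of 59 cells with at least 1 count, against 71.7% of 60 before thinning.

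The 10 genes whose log2(TPM + 1) followed Best3 most closely over the 321 kept cells were, in order, Igfn1 (Pearson r = 0.77), Sec1 (0.71), Vsx1 (0.66), Rgs3 (0.65), Cabp2 (0.62), Trim30a (0.59), Cabp1 (0.59), Pcp4l1 (0.58), Tmsb10 (0.57) and Bmp7 (0.57), out of 14095 genes compared. Cabp1 and Cabp2 encode calcium-binding proteins, Rgs3 a regulator of G protein signalling and Bmp7 a secreted growth factor. Mean levels in Vsx1-only against Sox6-only cells were 355 and 0.232 TPM for Igfn1, 284 and 5.92 TPM for Cabp2 and 255 and 13.2 TPM for Rgs3. These correlations mostly restate the split between groups. Within the 60 Vsx1-only cells r was 0.43 for Igfn1, 0.40 for Tmsb10 and 0.38 for Rgs3, but 0.03 for Vsx1, 0.09 for Cabp2 and -0.12 for Pcp4l1. Cells of 1 retina share animal, wells and depth, so these are descriptions.

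The other bestrophins were near absent. Best1, a channel of the pigment epithelium, had 52.1 counts in a single Sox6-only cell of retina 1la and none in any Vsx1-only or Ddit4l-only cell. Best2 had 1 count in 1 Sox6-only cell. For Vsx1-only cells the exact 95% interval of 0 of 60 reaches 5.96% for each gene. The pigment epithelium markers summed to at most 2.21 TPM in any retina and group.

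Ano2, the second calcium-activated channel gene of the set, also stood highest in Vsx1-only cells. It encodes a calcium-activated chloride channel (TMEM16B) known from olfactory neurons and photoreceptor terminals, and lies on the plus strand at chr6:125690419-126040126, where 2 non-coding genes, Gm16303 and Gm24947, overlap it on the same strand. In Vsx1-only cells Ano2 stood at 159, 172, 106 and 82.9 CPM, in the order 1la, 1Ra, 2la, 2Ra. In Sox6-only cells it stood at 11.6, 8.92, 33.8 and 15.7 CPM in that order. Ddit4l-only cells had 1.11, 0.651 and 0.0396 CPM and, in 2Ra, 24.1 CPM. The lowest Vsx1-only retina was above the highest retina of each other group. Among all 14505 genes tested in retina sums, 3.37% had all Vsx1-only retinas above all Sox6-only retinas, and 4.66% had them above all Ddit4l-only retinas. Sox6-only and Ddit4l-only retinas overlapped.

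Averaged over the mice, Ano2 was 130 ± 51.01 CPM in Vsx1-only, 18.4 ± 10.7 in Sox6-only and 4.14 ± 4.63 in Ddit4l-only cells (SD, n = 2 mice). Against Sox6-only cells the ratio was 15.4 in mouse 1 and 3.61 in mouse 2, and the edgeR log2 fold change was 3.21 with a standard error of 1.05 (p = 0.0329, adjusted p = 0.534). Against Ddit4l-only cells the ratio was 192 in mouse 1 and 12.7 in mouse 2, and the edgeR log2 fold change was 5.60 with a standard error of 1.198 (p = 0.00749, adjusted p = 0.229). Neither was a call over all genes. DESeq2 on the same sums did call both, with adjusted p of 0.00287 and 1.84e-09, and so did limma on mean log2(TPM + 1), with 0.0106 and 0.00426. These tools also called far more of all genes, 5.11% and 9.68% for DESeq2 and 2.27% and 4.2% for limma, against 0% and 0.0361% for edgeR.

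Ano2 was found with at least 5 counts in 37 of 60 Vsx1-only cells (61.7%, 48.2% to 73.9%), in 21 of 151 Sox6-only cells (13.9%, 8.82% to 20.5%) and in 4 of 59 Ddit4l-only cells (6.78%, 1.88% to 16.5%). In the Vsx1-only group these were 9 of 16, 14 of 18, 7 of 14 and 7 of 12 cells, again by retina. The cells with it held a median of 110 counts in the Vsx1-only, 114 in the Sox6-only and 73.01 in the Ddit4l-only group. Their median level was 75.4, 39.4 and 44.6 TPM. Cells with Ano2 thus stood higher in the Vsx1-only group in TPM, but not in counts against Sox6-only cells. The reason for this difference between the measures was not tested.

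Outside the Vsx1-only group, cells with Ano2 were mostly cells of high rod RNA. In Sox6-only cells Ano2 was found in 17 of 43 cells of high rod RNA (39.5%, 24.98% to 55.6%) and in 4 of 108 others (3.70%, 1.02% to 9.21%). In Ddit4l-only cells it was found in 4 of 11 cells of high rod RNA (36.4%) and in 0 of 48 others (0%, exact 95% interval up to 7.40%). In Vsx1-only cells it was found in 12 of 18 cells of high rod RNA (66.7%) and in 25 of 42 others (59.5%, 43.3% to 74.4%). The share moved with rod RNA in both other groups and was about the same in Vsx1-only cells.

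**Figure D2:**
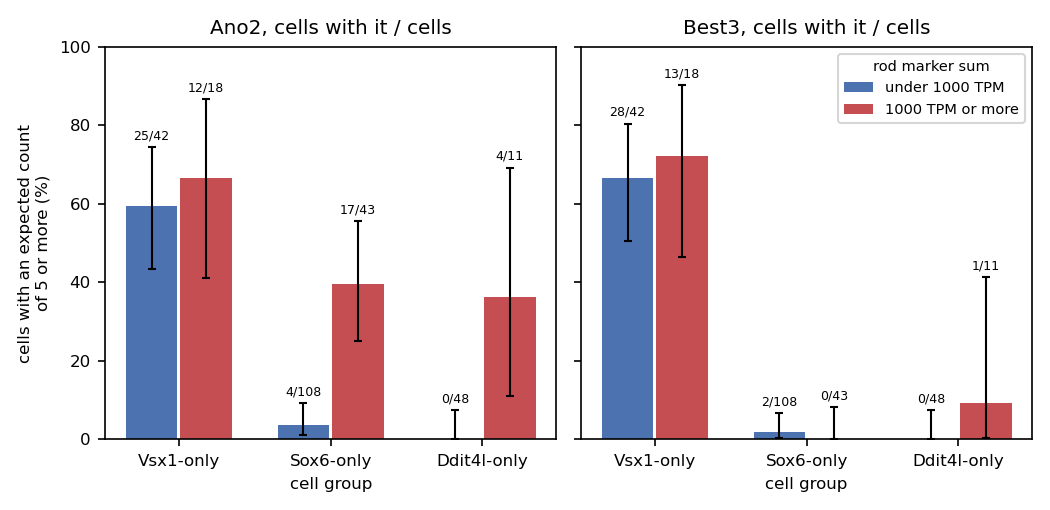
Share of cells with at least 5 counts of Ano2 (left) and Best3 (right), in percent, in the Vsx1-only, Sox6-only and Ddit4l-only groups, split at a summed rod marker level of 1000 TPM. Bars are shares, error bars exact 95% intervals, and the numbers above are cells with the gene over cells. Ano2 is at 3.70% and 0% in the other 2 groups where rod RNA is low, and at 59.5% in such Vsx1-only cells.

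Without the cells of high rod RNA, its CPM before TMM scaling was 174 in mouse 1 and 97.4 in mouse 2 for Vsx1-only cells, 0.365 and 12.8 for Sox6-only cells, and 0 and 0.0370 for Ddit4l-only cells, the last being 1 count. The Sox6-only value of mouse 2 came wholly from retina 2la, with 869 counts, while 2Ra had 0. Among Vsx1-only cells of low rod RNA, 2Ra was the lowest retina at 33.1 CPM before scaling. In sums per retina without these cells, an alternative chosen after the data were seen, edgeR called Ano2 against Ddit4l-only cells (adjusted p = 0.0150) and not against Sox6-only cells (adjusted p = 0.109). Retinas of 1 mouse are not independent, so these p-values are too small. In sums per mouse without these cells neither was a call (edgeR, adjusted p = 0.210 and 0.540).

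Best3 and Ano2 were found in overlapping but not identical Vsx1-only cells. At 5 counts, 27 cells held both, 14 held Best3 without Ano2, 10 held Ano2 without Best3 and 9 held neither. Over the 60 cells their levels had a Pearson r of 0.02, and over all 321 kept cells 0.40, which placed Ano2 at rank 61 among the genes most like Best3. In Sox6-only cells 0 of 151 held both.

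The sequence before the first of 3 annotated starts of Ano2 was picked because, unlike the other two, it holds a TAATCC core, the letters bound by the homeodomain factors Otx2 and Crx of bipolar cells and photoreceptors. It is set beside the windows of Clcn3, found in most cells of every group, and of Best1, near absent in all of them. RefSeq's table (GRCm38) matched 6 members, among which Best3, Best2 and Slc12a2 were not. Each run is the 250 bases before the start, 5′ to 3′ on the gene's strand, at chr6:125690169-125690418 (plus), chr8:60983312-60983561 (minus) and chr19:10001634-10001883 (minus). Capitals mark, on either strand, TAATCC, the homeodomain palindrome TAATTA and the E-box CAGCTG.
Ano2: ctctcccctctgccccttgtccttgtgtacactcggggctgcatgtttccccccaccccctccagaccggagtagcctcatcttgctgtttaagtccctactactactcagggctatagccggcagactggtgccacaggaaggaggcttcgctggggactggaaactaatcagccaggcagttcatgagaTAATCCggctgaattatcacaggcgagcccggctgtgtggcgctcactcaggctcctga
Clcn3: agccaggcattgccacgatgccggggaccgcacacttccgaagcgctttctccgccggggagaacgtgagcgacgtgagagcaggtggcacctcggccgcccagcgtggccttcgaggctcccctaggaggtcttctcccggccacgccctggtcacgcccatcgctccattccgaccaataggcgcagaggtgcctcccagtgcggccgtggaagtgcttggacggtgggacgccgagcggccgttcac
Best1: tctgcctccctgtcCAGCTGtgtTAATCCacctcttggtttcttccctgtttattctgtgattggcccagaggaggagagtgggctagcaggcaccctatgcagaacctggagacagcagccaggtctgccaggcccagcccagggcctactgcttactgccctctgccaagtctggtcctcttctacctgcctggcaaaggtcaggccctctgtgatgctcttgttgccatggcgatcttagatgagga
TAATCC stood in the Ano2 window, starting 59 bases before the start site, and also in the Best1 window, 227 bases before it, next to a CAGCTG. The windows before the other Ano2 starts, at chr6:125690369-125690618 and chr6:125710938-125711187, hold no TAATCC, and the second of them holds a CAGCTG. Clcn3 has 2 annotated starts, of which the upstream one is shown, and neither window had a match. Of 32851 such windows in the table, 6.25% hold TAATCC, 4.84% hold TAATTA and 13% hold the E-box on either strand, and the motifs do not overlap each other in these windows. A match describes letters only.

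Ano1, the epithelial and smooth muscle relative of Ano2, stood at 0.792 CPM in Vsx1-only, 0.0497 in Sox6-only and 0.0638 in Ddit4l-only cells on average. Of its 51 counts in Vsx1-only cells, 43 came from 1 cell. It was therefore near absent.

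Clcn3 was found in most cells of every group and did not separate them. It lies on the minus strand at chr8:60910389-60983300. In Vsx1-only cells it stood at 253, 148, 269 and 113 CPM in the retinas, listed as above. In Sox6-only cells the retinas lay between 171 and 190.0 CPM, and in Ddit4l-only cells between 110 and 372 CPM. The ranges of the groups overlapped. Mean levels were 205 ± 9.88, 185 ± 0.701 and 247 ± 113 CPM (SD, n = 2 mice), and the edgeR log2 fold changes were 0.16 with a standard error of 0.33 for Vsx1-only against Sox6-only cells and -0.21 with a standard error of 0.33 for Vsx1-only against Ddit4l-only cells (adjusted p = 0.982 and 0.863). With at least 1 count it was found in 95% of Vsx1-only, 90.7% of Sox6-only and 94.9% of Ddit4l-only cells. Its level in single cells was uneven, with a lower and upper quartile of 1.51 and 109 TPM in Sox6-only cells around a median of 20.5 TPM. With high rod RNA against low, Clcn3 stood at 171 against 221 CPM before TMM scaling in Vsx1-only and 161 against 194 in Sox6-only cells. In Ddit4l-only cells it was 296 against 251 CPM, with 161 against 168 in mouse 1 and 352 against 325 in mouse 2. Of the 3537 Ddit4l-only counts with high rod RNA, 2804 lay in 4 cells of 2la. The part of rod RNA in these values was not tested.

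Clcn2 was low and irregular. It lies on the minus strand at chr16:20702964-20717746, overlapped by the coding genes Fam131a and Polr2h on the other strand. Since Smart-seq2 does not mark strand, reads in the overlaps cannot be assigned to 1 strand. Clcn2 was at 15.1, 27, 2.26 and 9.35 CPM in Vsx1-only cells, at 7.14, 5.47, 6.39 and 11.9 CPM in Sox6-only cells and at 33.3, 9.57, 9.02 and 23.02 CPM in Ddit4l-only cells, in the order 1la, 1Ra, 2la and 2Ra. All groups overlapped. Against Sox6-only cells, Vsx1-only cells were higher in both retinas of mouse 1 and lower in both of mouse 2, and the edgeR log2 fold change was 0.45 with a standard error of 0.86 (adjusted p = 0.975). It was found at 1 count or more in 18.3% of Vsx1-only, 18.5% of Sox6-only and 27.1% of Ddit4l-only cells, with exact 95% intervals that overlap. With high rod RNA against low, Clcn2 stood at 18.2 against 10.3 CPM before TMM scaling in Vsx1-only, 3.90 against 9.61 in Sox6-only and 15.7 against 16.8 in Ddit4l-only cells. In Sox6-only cells of mouse 1 it was 0.733 against 9.24 CPM. The part of rod RNA in these values was not tested.

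**Figure D3:**
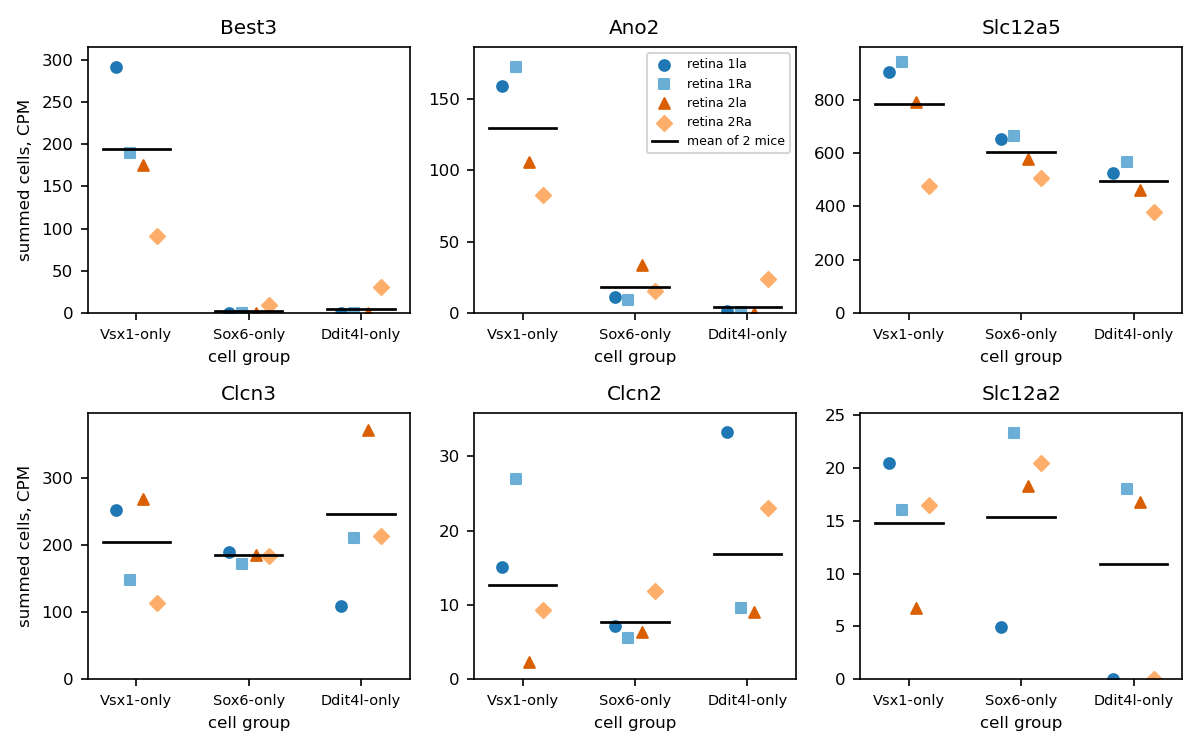
CPM of 6 members in the summed cells of each retina, for the Vsx1-only, Sox6-only and Ddit4l-only groups. Each symbol is 1 retina (blue, mouse 1; orange, mouse 2) and the line is the mean of the 2 mice. Best3, which was chosen for its level in Vsx1-only cells, and Ano2 separate the Vsx1-only retinas from the rest. Slc12a5 keeps the same order of groups in 3 of 4 retinas, and Clcn3, Clcn2 and Slc12a2 overlap.

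Slc12a5, the neuronal chloride extruder, was by far the most abundant member. It lies on the plus strand at chr2:164960802-164999731, and no other annotated gene overlaps it. In Vsx1-only cells it stood at 904, 940, 791 and 476 CPM in retinas 1la, 1Ra, 2la, 2Ra. Sox6-only cells had 651, 663, 576 and 508 CPM, and Ddit4l-only cells 525, 566, 461 and 381 CPM, in the same order of retinas. Within a retina, Vsx1-only cells were above Ddit4l-only cells in 4 of 4 retinas and above Sox6-only cells in 3 of 4, the exception being 2Ra, and Sox6-only cells were above Ddit4l-only cells in 4 of 4. Across retinas the groups overlapped, and retina 2Ra was the lowest in each group. The share of all genes with such an order within retinas is not given here.

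Over the mice, Slc12a5 averaged 784 ± 202 CPM in Vsx1-only, 604 ± 82.3 in Sox6-only and 496 ± 78.98 in Ddit4l-only cells (SD, n = 2 mice). The ratio of Vsx1-only to Ddit4l-only cells was 1.68 in mouse 1 and 1.46 in mouse 2, and the edgeR log2 fold change was 0.65 with a standard error of 0.14 (p = 0.00762, adjusted p = 0.230). In retina sums, blocked by retina, edgeR gave an adjusted p of 0.0335 at a log2 fold change of 0.66, under the 2-fold size a call needed. Retinas of 1 mouse are not independent, so that p is too small. Against Sox6-only cells the edgeR log2 fold change was 0.36 with a standard error of 0.14 (adjusted p = 0.587), and between Sox6-only and Ddit4l-only cells it was 0.29 with a standard error of 0.14 (adjusted p = 0.689). At least 1 count was found in 60 of 60 Vsx1-only, 150 of 151 Sox6-only and 59 of 59 Ddit4l-only cells. Per cell the median level was 268, 179 and 159 TPM. Slc12a5 also moved with rod RNA. With high rod RNA against low, it stood at 635 against 862 CPM before TMM scaling in Vsx1-only, 467 against 642 in Sox6-only and 634 against 461 in Ddit4l-only cells. In cells of low rod RNA the Vsx1-only sum was above the Ddit4l-only sum in both mice, at 1026 against 570.1 CPM and 679 against 363 CPM. In cells of high rod RNA this held in mouse 1, at 700.4 against 440 CPM, and not in mouse 2, at 566 against 714 CPM. The part of rod RNA in this was not tested.

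Slc12a2, the chloride loader, was low in every group. It lies on the plus strand at chr18:57878678-57946821. It was at 20.5, 16.1, 6.77 and 16.5 CPM in Vsx1-only cells and at 4.93, 23.3, 18.3 and 20.4 CPM in Sox6-only cells, in the order 1la, 1Ra, 2la and 2Ra. In Ddit4l-only cells it was at 18.03 CPM in 1Ra and 16.8 in 2la, with 0 counts in 1la and 2Ra, where each sum held 10 cells. Of its 701 counts in Ddit4l-only cells, 527 lay in the 11 cells of high rod RNA (44.1 CPM before TMM scaling, against 3.399 in the others). In 2la, 4 such cells held 423 counts and the other 16 cells held 1. In Sox6-only cells it went the other way, at 9.89 CPM with high rod RNA against 18.7 CPM, and in Vsx1-only cells it was 17.8 against 13.4 CPM. The part of rod RNA in these values was not tested. At 1 count or more it was found in 25% of Vsx1-only (14.7% to 37.9%), 29.1% of Sox6-only (22.04% to 37.1%) and 11.9% of Ddit4l-only cells (4.91% to 22.9%). The edgeR log2 fold changes were -0.04, 0.45 and 0.49 for Vsx1-only against Sox6-only, Vsx1-only against Ddit4l-only and Sox6-only against Ddit4l-only cells, with standard errors of 0.71, 0.70 and 0.69 (adjusted p = 1, 0.864 and 0.930). No difference was detectable at this depth and number of mice.

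Compared per length, Slc12a5 was above Slc12a2 in every group and mouse. Mean levels were 272 ± 79.6 and 3.58 ± 1.21 TPM in Vsx1-only, 198 ± 28.1 and 4.24 ± 1.49 TPM in Sox6-only and 172 ± 30.8 and 2.94 ± 0.0652 TPM in Ddit4l-only cells (SD, n = 2 mice). The ratio of the mean TPM was 74.01 and 79.04 in Vsx1-only, 68.4 and 33.7 in Sox6-only and 64.9 and 51.8 in Ddit4l-only cells, for mouse 1 and mouse 2. Ordered by mean TPM, Vsx1-only cells had Slc12a5 (272), Best3 (111), Ano2 (71.1), Clcn3 (69.5), Clcn2 (7.71), Slc12a2 (3.58) and Ano1 (0.391). In that order Best3, Ano2 and Clcn3 did not differ from their neighbour beyond the SD over mice, nor did Clcn2 and Slc12a2. In Sox6-only cells the order was Slc12a5 (198), Clcn3 (64.9), Ano2 (9.95), Clcn2 (7.11), Slc12a2 (4.24) and Best3 (1.04), and in Ddit4l-only cells Slc12a5 (172), Clcn3 (87.1), Clcn2 (10.9), Ano2 (3.06), Slc12a2 (2.94) and Best3 (2.81), the last 3 within the SD of Ano2.

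**Figure D4:**
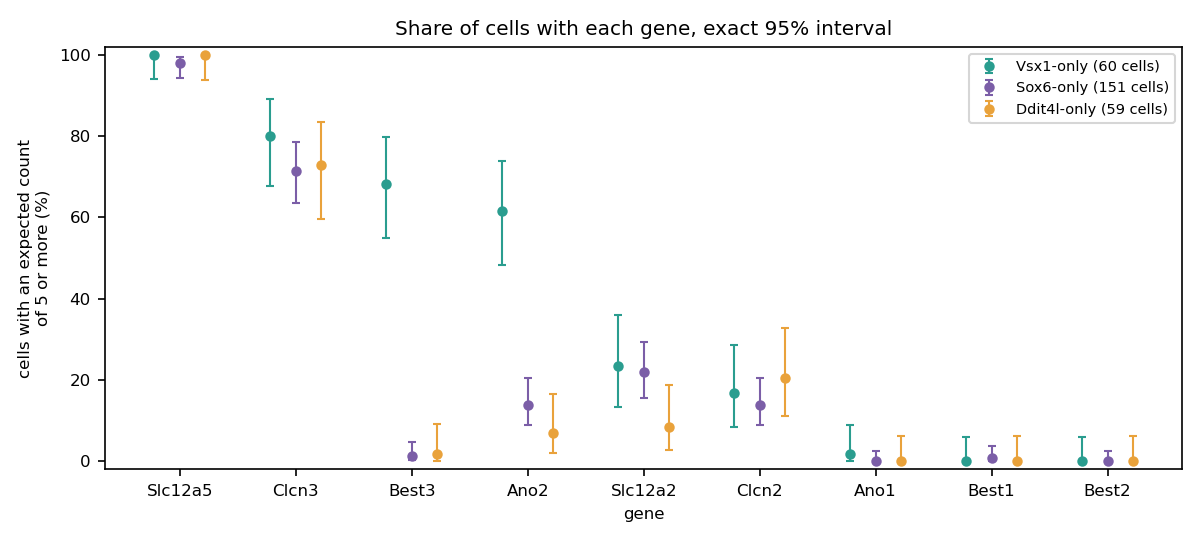
Share of cells with an expected count of 5 or more for each of the 9 genes, in percent, in Vsx1-only, Sox6-only and Ddit4l-only cells. Points are shares and error bars exact 95% intervals. Slc12a5 and Clcn3 are in most cells of all 3 groups, Best3 and Ano2 differ between the Vsx1-only group and the other 2, and Ano1, Best1 and Best2 are at or near 0.

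Counted over the members, edgeR on mouse sums called 0 of 6 tested between Sox6-only and Ddit4l-only cells, and 0 of the 5 tested without Best3 in each comparison with Vsx1-only cells. Over all 16643 genes it called 0%, 0% and 0.0361% (Vsx1-only against Ddit4l-only, all lower in Vsx1-only cells). At an unadjusted p under 0.05 the members counted were 0, Ano2 against Sox6-only cells, and Ano2 and Slc12a5 against Ddit4l-only cells, where 8.05%, 8.57% and 12.9% of all genes were under that p. Leaving the mouse block out raised the calls over all genes from 0, 0 and 6 to 1, 15 and 60 (0.00601%, 0.0901% and 0.361%), with no member among them. DESeq2 called 0, 1 and 1 members beside 4.55%, 5.11% and 9.68% of all genes, and limma likewise 0, 1 and 1 beside 1.17%, 2.27% and 4.2%. Sums per retina called 0 members in each comparison beside 0.538%, 0.793% and 2.28% of all genes.

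A wider list of 71 other chloride channels, transporters and their regulators was followed in the same way. The files hold 65 of them and 50 passed the filter on mouse sums. There edgeR called 0 of 50 in every comparison, with 3 at an unadjusted p under 0.05 for Sox6-only against Ddit4l-only, 4 for Vsx1-only against Sox6-only and 2 for Vsx1-only against Ddit4l-only cells. Over all genes 8.05%, 8.57% and 12.9% were under that p, so the list was not above the background. DESeq2 called 1, 2 and 1 of the 50, beside 4.55%, 5.11% and 9.68% of all genes, so these counts were not above the background either. The median log2 fold changes of the list were 0.24, -0.09 and -0.05, beside 0.08, -0.05 and 0.01 over all genes. In sums per retina, edgeR tested 44 and called 0, 1 (Ttyh1) and 2 (Ttyh1 and Slc4a10), all higher in Vsx1-only cells. Over all genes the same fit called 0.538%, 0.793% and 2.28%. The 5 most abundant by mean TPM over the groups were Ttyh1 (608), Slc4a10 (176), Wnk1 (104.9), Ttyh2 (77.7) and Clcn7 (65.3).

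Ttyh1, a tweety family membrane protein first described as a chloride channel, was the most abundant gene of the wider list and the highest in Vsx1-only cells. It stood at 1099, 1441, 933 and 893 CPM in Vsx1-only cells, at 612, 629.7, 475 and 435 CPM in Sox6-only cells and at 352, 379, 426 and 278 CPM in Ddit4l-only cells, in the order 1la, 1Ra, 2la and 2Ra. The 3 groups did not overlap, Vsx1-only above Sox6-only above Ddit4l-only, which also held for 3.37% of all tested genes in the first step and 4.45% in the second. Vsx1-only cells had 2.00 and 1.96 times the Sox6-only level in mouse 1 and mouse 2, and 3.38 and 2.33 times the Ddit4l-only level. The edgeR log2 fold changes in sums per mouse were 0.99 with a standard error of 0.19 (adjusted p = 0.356) and 1.48 with a standard error of 0.19 (adjusted p = 0.133). In sums per retina edgeR gave 1.02 (adjusted p = 0.0147) and 1.59 (adjusted p = 0.00109). Retinas of 1 mouse are not independent, so the p-values of sums per retina are too small. DESeq2 on mouse sums called Ttyh1 in both comparisons, with adjusted p of 0.000798 and 6.69e-08. Split by rod RNA, Ttyh1 kept that order of groups in both mice and in both kinds of cell. Markers of Müller glia moved with the groups in part. Their 8 markers summed to a mean of 738 TPM in Vsx1-only, 497 in Sox6-only and 367 in Ddit4l-only cells, but to a median of 224, 327 and 209 TPM. By retina the mean ran from 247 to 2209, from 330 to 843 and from 339 to 408 TPM, the highest being Vsx1-only cells of 2Ra, where 1 cell reached 24661 TPM. Glul stood at 177, 82.4, 88.96 and 396 CPM in Vsx1-only and 115, 87.4, 85.6 and 56.3 CPM in Sox6-only cells, in the same order of retinas. In Ddit4l-only cells it stood at 24.3, 43.2, 25.8 and 42.4 CPM. Other markers did not all follow Glul. In mouse 1, Apoe, Slc1a3, Dkk3 and Clu were lower in Vsx1-only than in Sox6-only cells, with Clu at 67.8 against 323 CPM. Rlbp1 and Vim were higher there, as was Glul. In mouse 2 all 8 markers were higher in summed Vsx1-only than in summed Sox6-only cells, but that sum includes the cell at 24661 TPM. Per cell, the median of the summed markers was lower in Vsx1-only than in Sox6-only cells of both its retinas. It was 151 against 276 TPM in 2la and 198 against 331 TPM in 2Ra. Aqp4 was under 1 TPM in all Sox6-only cells. The part of Müller glia RNA in the Ttyh1 levels was not tested. Ttyh1 was found in every cell of the 3 groups. On chromosome 7 it is overlapped by 2 non-coding genes of the other strand, 9430041J12Rik and D030047H15Rik.

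Slc4a10, a sodium-driven bicarbonate transporter that can exchange chloride, kept the same order of groups in 4 of 4 retinas while differing more between retinas. It stood at 470, 246, 716 and 397 CPM in Vsx1-only, 387, 178, 503 and 168 CPM in Sox6-only and 199, 170, 346 and 155 CPM in Ddit4l-only cells, in the order 1la, 1Ra, 2la and 2Ra. Sox6-only and Ddit4l-only cells lay close together in 1Ra and 2Ra. The share of all genes that keep such an order is not given here. The ratio of Vsx1-only to Ddit4l-only cells was 2.07 and 1.95 in the 2 mice. The edgeR log2 fold change was 1.01 in sums per mouse (adjusted p = 0.206) and 1.04 in sums per retina (adjusted p = 0.0371). The p of sums per retina is too small, since retinas of 1 mouse are not independent. In cells of low rod RNA that order of groups held in both mice, whereas in cells of high rod RNA Slc4a10 in mouse 1 stood at 248 CPM before TMM scaling in Vsx1-only and 278 CPM in Sox6-only cells, and in mouse 2 at 329 CPM in Ddit4l-only and 249.6 CPM in Sox6-only cells. Wnk1, a kinase that regulates the cotransporters, averaged 122 ± 63.8, 101 ± 15.5 and 112 ± 18.2 CPM in Vsx1-only, Sox6-only and Ddit4l-only cells (SD, n = 2 mice), Ttyh2 198 ± 82.7, 133 ± 27.9 and 141 ± 25.2 CPM, and Clcn7, the lysosomal exchanger, 108 ± 42.8, 84.4 ± 12.9 and 94.9 ± 60.9 CPM. For these 3 genes the edgeR adjusted p lay between 0.517 and 0.992 in all 3 comparisons.

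Slc12a4 (KCC1), a widely expressed relative of Slc12a5, was picked out after its values were seen. It stood at 31.5, 18.6, 13.5 and 11.9 CPM in Sox6-only cells, and in Vsx1-only cells at 0 in 1la, 1Ra and 2la and 6.12 CPM in 2Ra. In Ddit4l-only cells it had 1 count in all. All 4 Sox6-only retinas were above all Ddit4l-only retinas, which held for 4.45% of all tested genes. They were also above all Vsx1-only retinas, for which the share of all genes is not given here. Only 13 of 151 Sox6-only cells (8.61%, 4.66% to 14.3%) held 5 counts or more, against 1 of 60 Vsx1-only and 0 of 59 Ddit4l-only cells. The exact 95% intervals overlap, but they cover counting error only and cells are not replicates. In mouse sums edgeR gave adjusted p of 0.698 for Vsx1-only against Sox6-only and 0.541 for Sox6-only against Ddit4l-only cells, where DESeq2 gave 0.0492 and 8.02e-05.

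**Figure D5:**
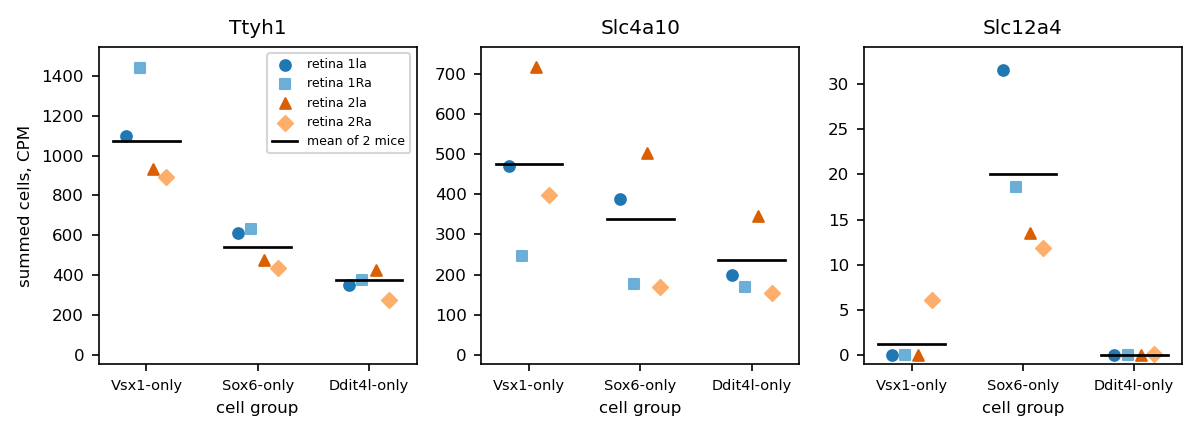
CPM of Ttyh1, Slc4a10 and Slc12a4 in the summed cells of each retina for the Vsx1-only, Sox6-only and Ddit4l-only groups. Symbols are retinas (blue, mouse 1; orange, mouse 2) and lines means of the 2 mice. Ttyh1 steps down from Vsx1-only to Ddit4l-only cells without overlap, and Slc12a4 counts lie almost wholly in Sox6-only cells.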

How the data were processed

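Single cells sorted for fluorescence from 4 retinas of 2 mice were profiled by Smart-seq2, single end, per the labels. RSEM 1.2.28, TopHat2 2.0.10 and the mm10 assembly are named in the submitters' processing notes; the annotation is not given in the sources used here. For every gene and cell the authors deposited raw expected counts, and TPM scaled within each cell; 1 cell of retina 1la had no values. Total counts of the 321 kept cells ran from 203657 to 1945582, and no 2 kept cells correlated above 0.77 in log counts, so none appeared to be a copy of another.

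The members, lists, thresholds and tests were chosen with earlier results of these data known. Cells were grouped by Sox6, Vsx1 and Ddit4l, which were left out of counts of calls. Expected counts were rounded, summed per mouse and group, filtered by filterByExpr and fitted with edgeR 4.0.16 (TMM, quasi-likelihood, mouse as a block; R 4.3.3) over all genes. The mouse pairs the sums by design, since groups came from the same animals; deviations from group means correlated at 0.03 to 0.07 over 16646 genes between groups of 1 mouse. Alternatives used DESeq2 1.42.0, limma 3.58.1 on log2(TPM + 1) or log2(TPM + 10), no filter, no block, other thresholds, sums per retina, and each retina left out. CPM used TMM-scaled totals. Exact intervals are Clopper-Pearson (scipy 1.17.1). Scripts were tested on simulated counts with 200 changed genes, for Vsx1-only against Sox6-only cells. In mouse sums edgeR called 54% of 8-fold and 1% of 2-fold changes, with 1 false call. In sums per retina it called 51% and 2%, with 4 false calls. A count of 0 calls therefore leaves differences of these sizes possible. Named were all members, up to 6 called and 5 abundant genes of the wider list, and 10 genes most like Best3 among those at 1 TPM or more in 20 cells. Positions are from GENCODE vM21 (GRCm38).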

Additional observations from a re-analysis of the deposited data

Results flagged for a closer look

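In 26 combinations of gene and cell group with at least 20 counts, 5 had 1 retina that stood far from the other 3. For normally distributed values the rule used flags about 1 in 20. That rate does not apply to sums that can rest on 1 or 2 cells, so no excess over chance can be read from the 5. Best3 was at 31.4 CPM in Ddit4l-only cells of retina 2Ra, against 0 in the other 3, and this was 1 cell with 345.1 counts. Best3 was also at 9.64 CPM in Sox6-only cells of retina 2Ra, against 0.0448 to 0.144 CPM, from 2 cells. Ano2 was at 24.1 CPM in Ddit4l-only cells of retina 2Ra, against 0.0396 to 1.11 CPM, from 2 cells, both of high rod RNA. Ano1 was at 2.26 CPM in Vsx1-only cells of retina 1la, against 0.0750 to 0.322 CPM, and Best1 at 1.25 CPM in Sox6-only cells of 1la, against 0, each from 1 cell.

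Clcn2 differed in direction between the mice. Vsx1-only minus Sox6-only cells gave 8.01 CPM in retina 1la and 21.5 CPM in 1Ra of mouse 1, and -4.13 CPM in 2la and -2.59 CPM in 2Ra of mouse 2. This difference between mice was not tested.

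Cells outside the 3 groups also held members. Of 33 cells with none of the markers at 20 TPM, 5 held Best3, with 37, 260.8 and 225.3 counts in retina 1Ra and 357.0 and 15 counts in 1la; their Vsx1 levels were 0 to 10.6 TPM. Of 18 cells with more than 1 marker, 3 held Best3, with 84, 134.0 and 113 counts, all from retina 2Ra. Over the 62 cells under 3000 genes, Ano2 summed to 720.01 counts, of which 719.0 were in 1 cell, Clcn3 to 2799.7 and Slc12a5 to 2866.7 counts, while Best3 had 4.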

How the results depend on the processing

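With 2 mice, a call over all genes needs large and even differences, and low members (Clcn2, Slc12a2, Ano1, Best1, Best2) are limited by counts in few cells. An alternative made a call that the reported fit did not in 7 values of Ano2, 8 of Ttyh1 and 2 of Slc4a10; those came from DESeq2, limma or sums per retina, with or without cells of high rod RNA. Slc12a5 kept its direction in all 57 alternative values and Ano2 in all 57.

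Calls over all genes, reported as 0 for Sox6-only against Ddit4l-only, 0 for Vsx1-only against Sox6-only and 6 for Vsx1-only against Ddit4l-only cells, were 78, 115 and 331 in sums per retina, 65, 111 and 239 in such sums without cells of high rod RNA, 758, 850 and 1611 with DESeq2, 195, 377 and 699 with limma on log2(TPM + 1), 64, 187 and 345 on log2(TPM + 10), and 1, 15 and 60 with no replicate block. For Vsx1-only against Sox6-only cells they were 3 with no filter and 1 at a marker threshold of 50 TPM. For Vsx1-only against Ddit4l-only cells they were 3 at that threshold, 0 in mouse sums without cells of high rod RNA, and 0 to 9 with 1 retina left out, 0 without 1la and 0 without 1Ra. Sums per retina test fewer genes but count retinas of 1 mouse as replicates; otherwise the cause was not tested. Of the members, DESeq2 and both limma fits called 1 in each comparison with Vsx1-only cells, and sums per retina without cells of high rod RNA called 1 against Ddit4l-only cells, Ano2 each time. The replicate block changed no member's call.

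The direction of members without a call turned in some settings. Best3 outside the Vsx1-only group rested on few cells. Its Ddit4l-only counts were 345 in cells of high rod RNA and 1 in the others. Sox6-only cells of low rod RNA held 409 counts, 398 of them in retina 2Ra. For Best3, Sox6-only against Ddit4l-only cells, the log2 fold change was -0.89. It became 6.57 without cells of high rod RNA, 5.48 in sums per retina without them and 0.29 in mouse 1 alone. With 1 retina left out it ranged from -1.22 to 5.07, 5.07 without 2Ra. For Clcn3 it became 0.15 (Sox6-only against Ddit4l-only) and 0.35 (Vsx1-only against Ddit4l-only) in mouse 1 alone, and with 1 retina left out ranged from -0.21 to 0.34 against Sox6-only and from -0.61 to 0.16 against Ddit4l-only cells. For Clcn2, Vsx1-only against Sox6-only, it became -0.24 without cells of high rod RNA, -0.49 in such sums per retina and -0.72 in mouse 2 alone, and against Ddit4l-only cells ranged from -1.24 to 0.36 with 1 retina left out. For Slc12a2, Vsx1-only against Sox6-only, it became 0.38 in sums per retina, 0.00184 with DESeq2, 0.00165 with its size factors in edgeR, 0.13 at 4500 genes per cell, 0.0158 and 0.00795 with limma and pseudocounts of 1 and 10, and 0.70 in mouse 1 alone, with a range from -0.69 to 1.36 when 1 retina was left out. Against Ddit4l-only cells it became -0.14 in mouse 2 alone, with a range from -0.14 to 3.22. The cause was not tested.

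Shares of cells moved with the detection limit. At 5 counts, Best3 fell to 1.32%, Slc12a2 to 21.9%, Clcn3 to 71.5%, and Ano1 and Best2 to 0% in Sox6-only cells. Clcn3 fell to 80% and Ano1 to 1.67% in Vsx1-only cells, and Clcn3 to 72.9% and Ano1 to 0% in Ddit4l-only cells. Thinned to 300000 counts, Best3 was at 3.31%, Clcn3 at 82.1% and Best2 at 0% in Sox6-only cells, and Clcn3 at 84.7% and Ano1 at 0% in Ddit4l-only cells. Other marker thresholds left every share within its exact interval.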
